A study of Saccharomyces cerevisiae with 96 samples.

Results

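Of 12 yeast populations evolved on xylulose, 4 populations with a raised level of the genes of chromosome XV, those numbered 1, 3, 8 and 11, were compared with the other 8. They were selected on the expression values themselves. For each sugar the log2 level of every gene was taken relative to its mean over the 12 evolved populations, and the median over the genes of chromosome XV was above 0 on both sugars in these 4 and in no other population. The levels of chromosome XV genes in the evolved populations are therefore given as a description, with no test. Tests were kept for genes on the other chromosomes and for the wild type strains, which the selection did not use.

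The study grew 12 wild type strains of Saccharomyces cerevisiae, and the population derived from each by about 300 generations of growth in YP-xylulose, on YPD (glucose) and on YP-xylulose, and sequenced RNA from log phase cells. Each population and sugar had 2 repeats, so the 4 selected populations account for 8 of the 24 evolved columns, of 48 columns and 96 libraries in all. The labels give strain YPS1009 for number 1, T7 for number 3, CLIB324 for number 8 and BY4743 for number 11, and T73, Y12, YJM269, PW5, CLIB215, CBS7960, EC1118 and SK1 for numbers 2, 4, 5, 6, 7, 9, 10 and 12. No allele, agent or age separates the sets, and every evolved population came from the same kind of selection on xylulose. Each column is a population and not a clone, and holds the authors' average of its repeats, so the spread given here is that between populations of different strains. Values are reads per 1000000 (RPM), blank under 10 RPM. The values cover 5129 genes, those whose mean over all columns reached 10 RPM (5127 could be fitted on glucose and 5114 on xylulose). Of these, 468 lie on chromosome XV (600 of its genes are in the table) and 4661 elsewhere.

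Budding yeast tolerates gain of a whole chromosome, and such gains are common in populations under strong selection. An extra copy raises the transcripts of most genes of that chromosome roughly in proportion to its copy number, while dosage compensation at the RNA level is known for few genes. DNA copy number was not measured in these libraries, so a gained chromosome and any other way of raising its transcripts cannot be told apart here. In bulk samples, fewer cells of a kind and less RNA per cell cannot be told apart either.

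Some columns went against their strain labels. Over 57 genes whose level was typical of a strain on both sugars, evolved populations 1 and 3 were most like the wild type of their own number (r across genes of 0.56 and 0.62). Evolved population 8 was most like wild type 12 (r = 0.80, against -0.38 for its own number), and evolved population 11 was most like wild type 7 (r = 0.82, against 0.11). LEU2, which BY4743 lacks, was blank on both sugars in evolved population 7, and was at 88.8 RPM on glucose and 82.8 RPM on xylulose in the one labelled 11. In all, 8 of the 12 evolved populations, numbers 5 to 12, were most like the wild type of another number, 6 of them among the others. Populations are named by their label throughout. The wild type values below are given by label and with the numbers exchanged (5 to 8 for 9 to 12), since for populations 8 and 11 the same number need not mean the same strain. Depth could be read from the step between low values in 5 of the 24 evolved columns (1 of them in the selected set), at 680901 to 1114028 reads, and is unknown in the others. The values of population 8 on glucose summed to 888352 RPM, below the 971275 to 996972 RPM of the other evolved columns, and results on glucose are given without it where it decides them. Genes of mating type a cells summed to 752 to 4913 RPM on glucose in the selected set, highest in population 8, and to 41.1 to 2391 RPM in the others. On xylulose both sets stood at 12.1 to 47.2 RPM, with 4 of the 7 genes blank throughout each set. Genes of mating type alpha cells reached 59.7 RPM on glucose and 10.4 RPM on xylulose in the selected set, and 742 and 446 RPM in the others, highest in population 5. Genes of haploid cells summed to 204 to 781 RPM on glucose in the selected set and to 49.9 to 593 RPM in the others. On xylulose these haploid sums were 28.4 to 179 RPM and 12.2 to 469 RPM. The part of cell type in the results was not tested.

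On glucose the chromosome XV median, a log2 difference from the mean of the evolved populations, was 0.04 in population 1, 0.22 in population 3, 0.24 in population 8 and 0.23 in population 11. The other 8 ran from -0.28 (population 12) to 0.09 (population 10), so the sets overlapped. On xylulose the same measure was 0.29, 0.08, 0.25 and 0.27 in populations 1, 3, 8 and 11, and the others lay between -0.19 and -0.01. Just inside the selection were thus population 1 on glucose and population 3 on xylulose. Just outside were populations 10, 6 and 5, which stood at 0.09, 0.05 and 0.02 on glucose and were below 0 on xylulose.

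The sets were apart on both sugars once the median of the genes elsewhere was subtracted in each column. On glucose the relative level of chromosome XV was 0.19, 0.30, 0.10 and 0.22 in populations 1, 3, 8 and 11, against -0.15 to -0.08 in the others. On xylulose it was 0.33, 0.23, 0.36 and 0.32, against -0.20 to -0.09. The mean difference was 0.31 on glucose (0.20 ± 0.08 against -0.11 ± 0.02; SD, n = 4 and 8), or 1.24-fold, and 0.46 on xylulose (0.31 ± 0.05 against -0.15 ± 0.03), or 1.38-fold. Relative to the mean wild type of the same sugar, the selected set stood at 0.29 on glucose and 0.45 on xylulose, and the others at -0.01 and -0.02. Chromosome XV took 10.2 to 11.9% of all RPM on glucose in the selected set and 8.61 to 9.17% in the others, and 11.7 to 12.7% against 8.54 to 9.41% on xylulose.

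**Figure D1:**
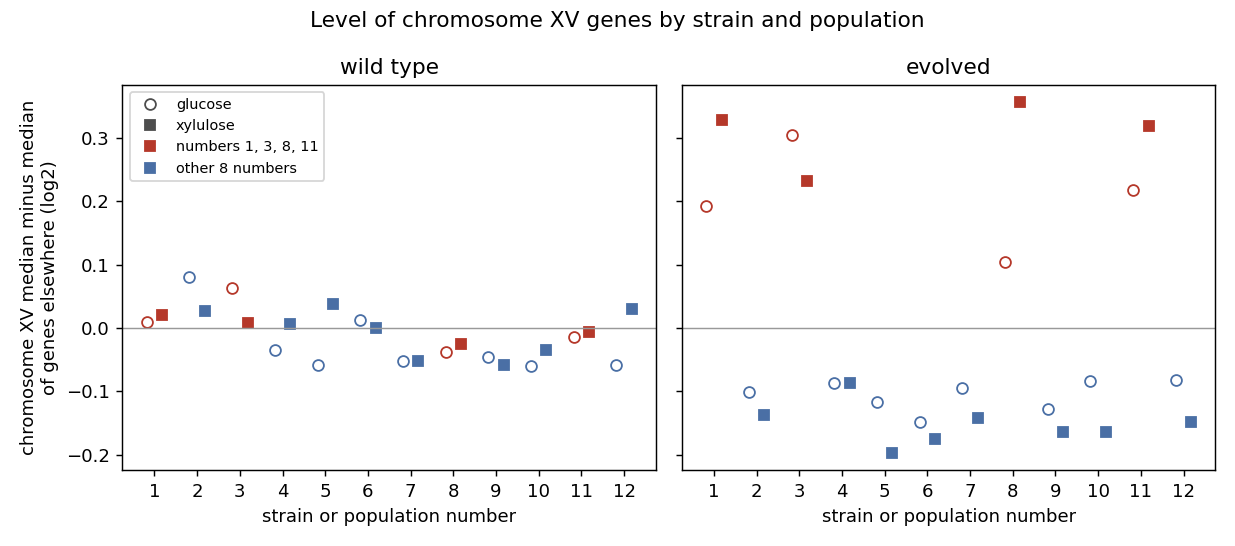
Level of chromosome XV genes relative to the genes elsewhere (log2) in each of the 12 wild type strains (left) and each of the 12 evolved populations (right). Open circles are glucose, filled squares xylulose, red the numbers 1, 3, 8 and 11 and blue the other 8. In the evolved populations all red points lie above 0 and all blue points below, while in the wild type strains both colours lie on either side of 0.

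In the wild type strains with the same numbers the sets were not apart over all tested genes. Their relative level of chromosome XV differed between the sets by 0.03 on glucose (exact 2-sided permutation test over all assignments, p = 0.309) and by 0.00 on xylulose (exact permutation p = 0.822), and the ranges overlapped on both sugars. The unscaled medians differed by 0.09 (exact permutation p = 0.220) and -0.01 (exact permutation p = 0.842). With the numbers exchanged the unscaled values were -0.09 (exact permutation p = 0.251) and -0.02 (exact permutation p = 0.685). The relative ones were then 0.010 on glucose (exact permutation p = 0.756) and 0.008 on xylulose (exact permutation p = 0.679). By label, over genes of at least 50 RPM only, the unscaled glucose difference was 0.10 (exact permutation p = 0.0182). The unscaled wild type result on glucose thus depended on the genes used, and the relative level was not tested over that gene set. By level in the evolved columns, the wild type glucose difference per gene at 50 to 200 RPM had medians of 0.07 on chromosome XV and 0.09 elsewhere. Over 200 RPM these were 0.08 and 0.05.

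The higher level ran along the whole chromosome. Chromosome XV is 1091291 bases long in the R64 reference, with its centromere at chrXV:326584-326702, and 140 tested genes lie on the left arm and 328 on the right. The relative difference between the sets was 0.29 on the left arm and 0.31 on the right on glucose, and 0.40 and 0.48 on xylulose. In 11 bins of 100000 bases the difference was between 0.21 and 0.43 on glucose and between 0.40 and 0.52 on xylulose. All 4 populations were above all 8 others in 3 of the 11 bins on glucose and in 11 of 11 on xylulose. Every bin was above 0 on xylulose in each of the 4, and on glucose 11 bins were above 0 in population 1, 11 in population 3, 9 in population 8 and 10 in population 11.

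**Figure D2:**
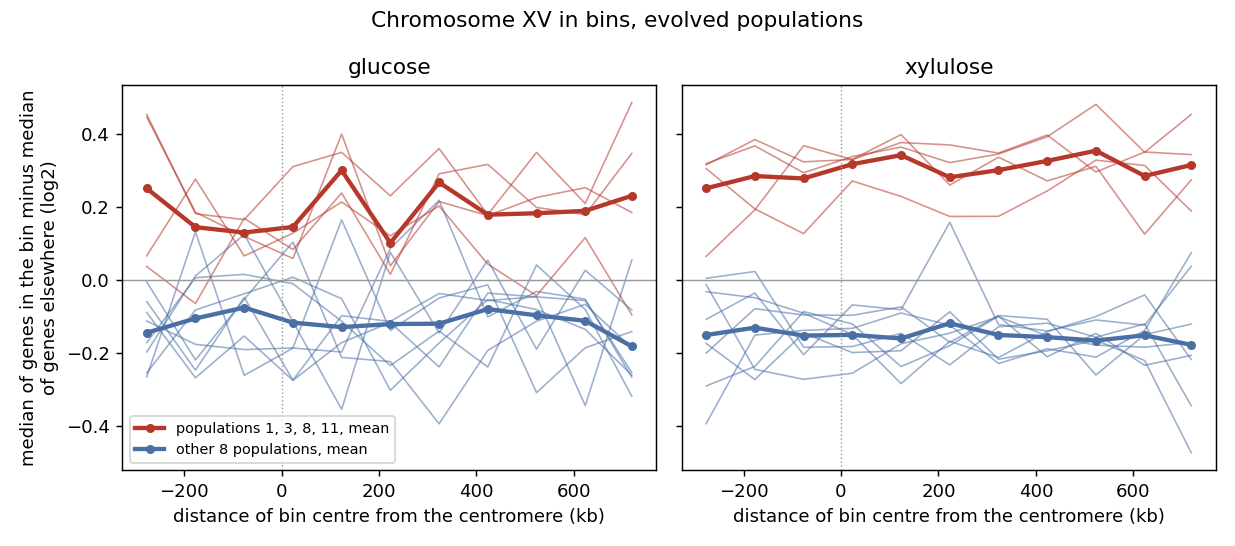
Relative level (log2) of chromosome XV genes in 11 bins of 100000 bases, by distance of the bin's centre from the centromere, on glucose and on xylulose. Thin lines are populations, thick lines the mean of populations 1, 3, 8 and 11 (red) and of the other 8 (blue); on xylulose the red lines lie above the blue ones in every bin.

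Most single genes of the chromosome shared the difference. The log2 difference between the sets had a median of 0.23 on glucose (quartiles -0.01 and 0.47) and of 0.35 on xylulose (quartiles 0.13 and 0.54). It was above 0 for 343 of 468 genes on glucose (73.3%) and 404 on xylulose (86.3%), against 42.7% and 33.7% of the genes elsewhere. On both sugars 307 genes were above 0 and 27 below. By level, the xylulose median was 0.14 for the 46 genes under 20 RPM and 0.46 for the 80 genes over 200 RPM, while on glucose these were 0.41 and 0.19. Genes elsewhere at these levels had medians of -0.14 and -0.04 on xylulose and of 0.12 and -0.13 on glucose. The fall with level on glucose was thus shared by the genes elsewhere. The 323 chromosome XV genes with a value in all 24 evolved columns had medians of 0.19 on glucose and 0.36 on xylulose.

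All 4 selected populations exceeded all 8 others for 6 chromosome XV genes on glucose (1.28%) and 29 on xylulose (6.20%), and were below all 8 for 0. Over all 5129 genes this was so for 0.175% on glucose and 0.585% on xylulose, values that hold the genes of the selection and are a background only. None of the 35 genes was apart on both sugars. The glucose genes included PAP2, a poly(A) polymerase of nuclear RNA surveillance, SEC63, a subunit of the translocation complex of the endoplasmic reticulum, and IZH2, a membrane protein of zinc homeostasis. PAP2 (YOL115W, chrXV:101475-103229) was at 80.3, 58.9, 64.1 and 52.9 RPM on glucose in populations 1, 3, 8 and 11. In the others it ran from blank through a median of 21.8 to 35.2 RPM, a log2 difference of 1.55. Its difference on xylulose was 0.57, where the sets overlapped. PAP2 was added after its values were seen.

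**Figure D3:**
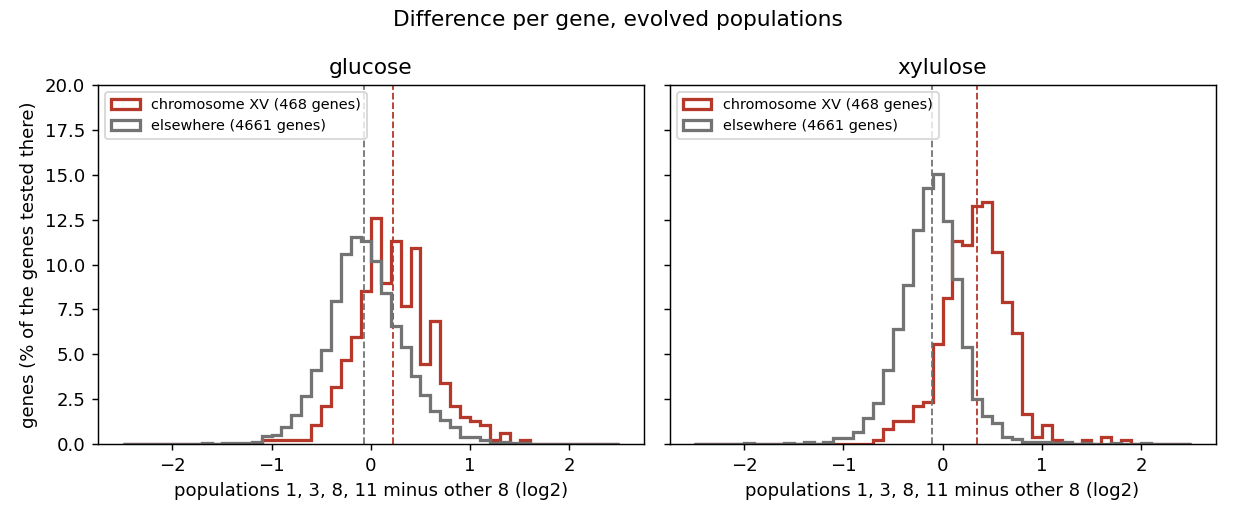
Genes by log2 difference between populations 1, 3, 8 and 11 and the other 8, in steps of 0.1, for chromosome XV and elsewhere on each sugar. Heights are % of the genes tested in that part, not numbers of genes (values beyond the axis are placed in the outermost step). Dashed lines are medians, 0.23 and 0.35 on chromosome XV and -0.06 and -0.11 elsewhere.

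Genes of carbon and energy metabolism were among the most abundant on the chromosome. ADH1 (YOL086C, chrXV:159548-160594), the main alcohol dehydrogenase of fermentation, was at 17072, 21614, 21757 and 15192 RPM on glucose in populations 1, 3, 8 and 11, and at 11321 to 15913 RPM (median 12942) in the others. On xylulose it was at 8288, 5353, 12026 and 8477 RPM, against 3778 to 7413 RPM (median 5035). In each case 3 of the 4 lay above the others, population 11 being the exception on glucose and population 3 on xylulose, with log2 differences of 0.52 and 0.68. CYT1 (YOR065W, chrXV:447439-448368), cytochrome c1 of the respiratory chain, was at 3106, 2963, 3749 and 3302 RPM on xylulose, above the 1239 to 2658 RPM (median 1887) of the others. On glucose it was at 551, 814, 580 and 583 RPM, within the 238 to 852 RPM of the others, and the differences were 0.83 and 0.69. RKI1 (YOR095C, chrXV:503552-504328) encodes ribose-5-phosphate ketol-isomerase of the pentose phosphate pathway, by which xylulose enters metabolism after phosphorylation. It was at 314, 346, 257 and 273 RPM on xylulose, against 63.8 to 430 RPM (median 207), and at 205, 209, 99.8 and 151 RPM on glucose, against 62.8 to 154 RPM (median 89.9). Its difference was 0.78 on either sugar and the sets overlapped. Of 18 tested genes in the list of carbon and energy metabolism on chromosome XV, 15 were above 0 on glucose and 12 on xylulose (medians 0.19 and 0.21). Over all tested genes of the chromosome 73.3% and 86.3% were above 0 (medians 0.23 and 0.35), so on xylulose the list lay below the chromosome. In the wild type strains of the same numbers, by label, the list had medians of 0.25 on glucose and 0.04 on xylulose. Over the chromosome the wild type medians were 0.05 and 0.01. Within the list in the evolved populations, ALD4, mitochondrial aldehyde dehydrogenase, stood at 0.07 on glucose and -0.11 on xylulose, changing sign with the setting on both sugars. PYK2, a minor pyruvate kinase, stood at -0.55 and 0.19, the latter changing sign with the setting.

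Genes of ribosome synthesis on the chromosome were higher on xylulose throughout. RPS28A (YOR167C, chrXV:648804-649007), a protein of the small subunit with a near-identical copy elsewhere, was at 2894, 2954, 2860 and 2843 RPM on xylulose in populations 1, 3, 8 and 11, against 1477 to 2281 RPM (median 1926). On glucose it was at 3288, 2493, 1635 and 3265 RPM, against 1214 to 3202 RPM (median 2132). The 4 populations were apart from the rest on xylulose (difference 0.63) and spread through their range on glucose (0.35). All 13 cytosolic ribosomal protein genes of chromosome XV were above 0 on xylulose, beside 86.3% of all its tested genes. Their median was 0.55, beside 0.35 over the chromosome. RPS28A, RPS30B, RPS15, RPS7A and RPL20B were apart, as were 6.20% of all tested genes of the chromosome. On glucose 8 of 13 were above 0, beside 73.3% over the chromosome. Their median there was 0.04, a value that turned on population 8, whose ribosomal protein genes were at -1.48 on chromosome XV and -1.52 elsewhere. Without population 8 these glucose differences were 0.57 on chromosome XV and 0.18 elsewhere, where they were -0.25 with it. Many ribosomal protein genes have near-identical copies between which reads can be split.

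Genes of ribosome assembly on the chromosome were also above 0, all but 1 of them on glucose. NOP58 (YOR310C, chrXV:896825-898360), a core protein of small nucleolar particles that methylate rRNA, was at 2869, 2411, 1944 and 1800 RPM on xylulose, against 952 to 2003 RPM (median 1470). On glucose it was at 2155, 2326, 784 and 1642 RPM, against 704 to 1730 RPM (median 1270). Populations 1 and 3 were above the others on either sugar, populations 8 and 11 were not, and the differences were 0.66 and 0.41. NOC2, which takes part in the export of the large subunit, was apart on xylulose at 0.82, and UTP23, of the small subunit processome, stood at 1.09 on xylulose and 0.66 on glucose. Of the 16 tested genes of rRNA processing and ribosome assembly on chromosome XV, 16 were above 0 on xylulose (median 0.64) and 15 on glucose (median 0.41). The 145 elsewhere had medians of 0.12 and 0.04. Over all tested genes of the chromosome, 86.3% on xylulose and 73.3% on glucose were above 0 (medians 0.35 and 0.23).

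Genes of protein folding and turnover on the chromosome were above 0 on xylulose, as were 86.3% of all its tested genes (73.3% on glucose). MGE1 (YOR232W, chrXV:774573-775259), the nucleotide exchange factor of mitochondrial Hsp70, was at 683, 621, 762 and 681 RPM on xylulose, above the 323 to 578 RPM (median 427) of the others, a difference of 0.62. HSP10, the mitochondrial co-chaperonin, stood at 0.71 on xylulose and -0.03 on glucose, the latter changing sign with the setting. All 5 chaperone genes of the chromosome were above 0 on xylulose (median 0.49) and 3 on glucose (median 0.01). Of the 6 proteasome genes, 6 were above 0 on xylulose and 5 on glucose (medians 0.40 and 0.28), against -0.09 and -0.06 for the 41 elsewhere. Membrane transport genes of the chromosome had medians of 0.23 on xylulose and 0.03 on glucose (13 tested), and signalling and regulator genes 0.28 and 0.12 (19 tested). In the wild type strains of the same numbers, by label, these were 0.16 and 0.18 for transport, and -0.02 and 0.08 for signalling and regulator genes. Of the 19 signalling and regulator genes in the evolved populations, 14 were above 0 on xylulose and 12 on glucose. WHI2 stood at 0.14 and 0.38, GPB1 at 0.08 and 0.34, and SIN3 at 0.07 and 0.00. Below 0 were STE4, the beta subunit of the mating G protein, at -0.42 and -0.60, and IRA2, an inhibitor of Ras, at -0.16 and -0.22. The xylulose signs of STE4 and GPB1 and the glucose signs of IRA2 and SIN3 changed with the setting.

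The largest mean differences among chromosome XV genes with a value in every evolved column were those of HPF1, UTP23, ETT1, GDH1 and UFE1. HPF1 (YOL155C, chrXV:28703-31606), a cell wall mannoprotein, was at 3894, 1488, 294 and 550 RPM on xylulose, against 29.3 to 1904 RPM (median 442), and its differences of 1.48 and 1.31 (xylulose, glucose) stood beside 2.12 and 1.75 in the wild type strains of the same numbers (1.96 and 1.84 with the numbers exchanged). GDH1 (YOR375C, chrXV:1041678-1043042), the main NADP-dependent glutamate dehydrogenase, was at 619, 744, 1112 and 504 RPM on xylulose, against 231 to 747 RPM (median 308), a difference of 1.05, with 0.75 in the wild type (1.201 exchanged). ETT1, a factor of translation termination, stood at 1.10 on glucose and 0.60 on xylulose, and UFE1, a t-SNARE of the endoplasmic reticulum, at 0.96 and 0.67, apart on xylulose.

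**Figure D4:**
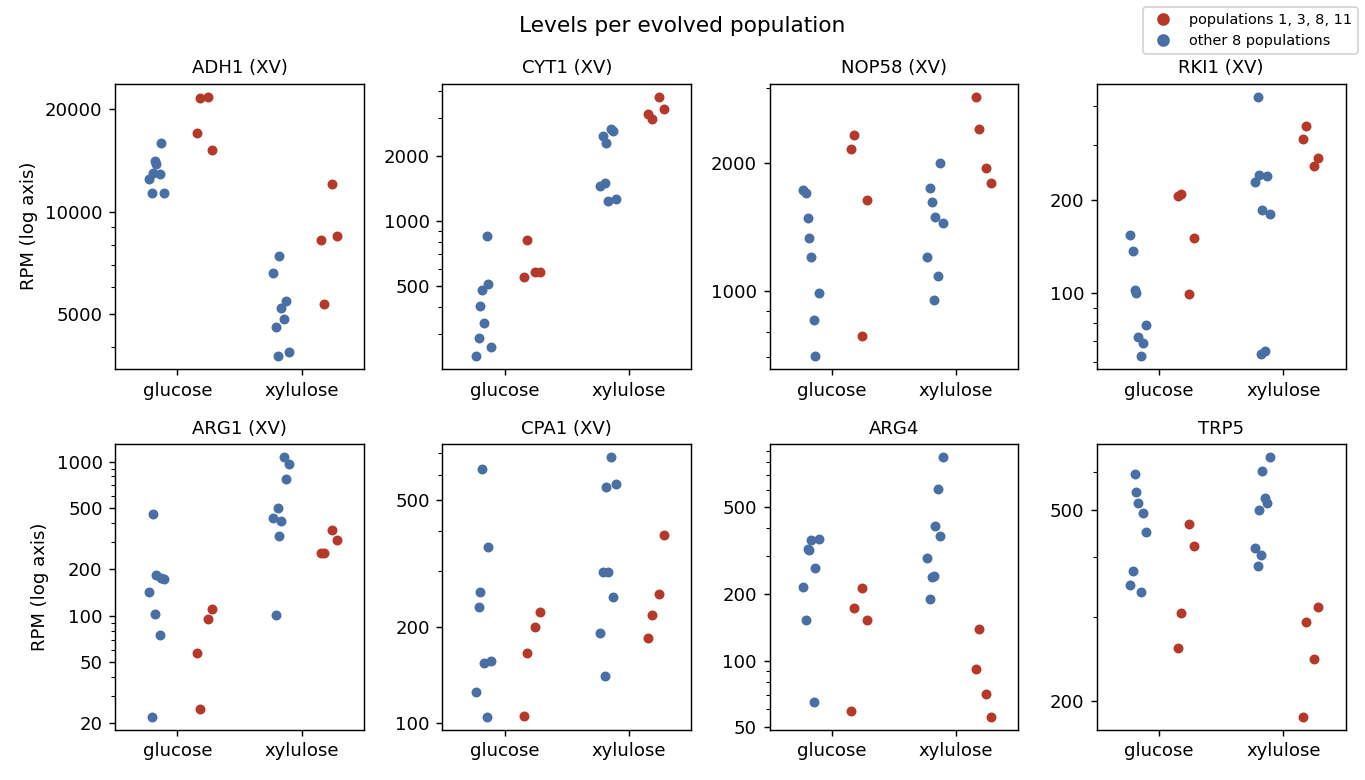
RPM (log axis) of ADH1, CYT1, NOP58, RKI1, ARG1 and CPA1 on chromosome XV and of ARG4 and TRP5 elsewhere in each evolved population. In each panel glucose is on the left and xylulose on the right, with populations 1, 3, 8 and 11 in red and the other 8 in blue. On xylulose ARG4 and TRP5 are lower, and CYT1 higher, in all 4 red populations than in any blue one.

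At the other end of the chromosome's genes stood 3 genes of the arginine pathway. The lowest mean differences were those of ARG1, argininosuccinate synthetase, TPO4, a polyamine exporter of the plasma membrane, ORT1, the mitochondrial ornithine exporter, CPA1, the small subunit of carbamoyl phosphate synthetase, and YOR203W. Amino acid synthesis genes are activated in yeast by Gcn4, which binds the sequence TGACTC. The window of 250 bases that ends 100 bases before the start codon is printed for ARG1 and ORT1, for ARG8, acetylornithine aminotransferase, a gene of the same pathway on the same chromosome that was not low, and for ARG4, argininosuccinate lyase, on chromosome VIII. ARG8 was added after its values were seen. Capitals mark this motif, written GAGTCA where it lies on the opposite strand, and the windows, read 5′ to 3′ on the gene's strand from the RefSeq R64 genome, are chrXV:218861-219110 (plus strand), chrXV:570908-571157 (minus strand), chrXV:58409-58658 (plus strand) and chrVIII:141503-141752 (minus strand).
ARG1: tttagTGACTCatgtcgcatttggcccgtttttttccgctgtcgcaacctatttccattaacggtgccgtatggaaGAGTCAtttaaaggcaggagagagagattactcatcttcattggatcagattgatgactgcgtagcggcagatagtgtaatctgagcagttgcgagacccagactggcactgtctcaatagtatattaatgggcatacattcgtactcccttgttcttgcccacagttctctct
ORT1: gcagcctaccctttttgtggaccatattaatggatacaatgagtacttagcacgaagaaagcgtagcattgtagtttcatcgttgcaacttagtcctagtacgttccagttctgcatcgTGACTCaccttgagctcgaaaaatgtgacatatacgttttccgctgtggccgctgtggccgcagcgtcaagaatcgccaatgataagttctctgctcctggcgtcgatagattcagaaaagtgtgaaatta
ARG8: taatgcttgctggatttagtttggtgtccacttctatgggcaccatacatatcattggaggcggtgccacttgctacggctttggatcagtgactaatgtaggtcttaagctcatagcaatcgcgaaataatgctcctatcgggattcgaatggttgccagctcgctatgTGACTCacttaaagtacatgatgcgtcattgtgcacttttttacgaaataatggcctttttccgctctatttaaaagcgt
ARG4: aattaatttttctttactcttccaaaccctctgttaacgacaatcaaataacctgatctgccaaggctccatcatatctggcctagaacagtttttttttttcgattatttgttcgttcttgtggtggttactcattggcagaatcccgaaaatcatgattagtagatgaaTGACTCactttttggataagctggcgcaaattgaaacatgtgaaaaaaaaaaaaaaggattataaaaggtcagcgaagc

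The ARG1 window holds the motif 2 times, with first bases 345 and 274 before the start codon, and the other windows hold it once, at 231 (ORT1), 180 (ARG8) and 179 (ARG4). It occurs on either strand in 426 of 6020 such windows of protein coding genes (7.08%), in 36 of 455 of tested genes on chromosome XV (7.91%), in 8 of 9 of the amino acid synthesis list on chromosome XV (88.9%) and in 41 of 80 of that list elsewhere (51.3%). A match describes the letters only and does not show binding.

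ARG1 (YOL058W, chrXV:219211-220473) was at 57.2, 25, 95.2 and 111 RPM on glucose in populations 1, 3, 8 and 11, against 22.1 to 459 RPM (median 157). On xylulose it was at 254, 254, 361 and 309 RPM, against 101.5 to 1065 RPM (median 467). The 4 lay in the lower part of a wide range on either sugar, with differences of -1.01 and -0.69, and the wild type strains stood at 1.79 and 0.38 by label and at 0.36 and 1.91 with the numbers exchanged. ORT1 (YOR130C, chrXV:569929-570807) was at 57.1, 51.0, 54.8 and 50.7 RPM on xylulose, a narrow span within the 31.7 to 119 RPM of the others (median 79.9), and its differences were -0.37 on glucose and -0.48 on xylulose. CPA1 (YOR303W, chrXV:882899-884134) was at 184, 217, 254 and 388 RPM on xylulose, against 140 to 680 RPM (median 296), with differences of -0.35 on glucose and -0.37 on xylulose. ARG8 was at 154, 208, 197 and 275 RPM on xylulose, against 110 to 300 RPM, and its differences were 0.08 on glucose, with a sign that changed with the setting, and 0.32 on xylulose. Of 9 amino acid synthesis genes on the chromosome, 5 were above 0 on glucose and 4 on xylulose (medians 0.08 and -0.05). Of all tested genes of the chromosome, 73.3% and 86.3% were above 0, with medians of 0.23 and 0.35. The wider list of 14 amino acid and nucleotide synthesis genes there had medians of 0.25 and 0.06.

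Across the genes elsewhere, no gene passed an adjusted p of 0.05 (limma, Benjamini-Hochberg over all genes tested). The percentage called over all genes was 0 on glucose, 0 on xylulose, 0 for the difference between the sugars within each population, and 0 and 0 in the wild type strains of the same numbers on glucose and xylulose. The smallest adjusted p (limma) was 0.846, 0.203, 0.961, 0.105 and 0.543 in that order. At an unadjusted p under 0.05, limma gave 69 higher and 126 lower genes in the selected set on glucose, 53 and 408 on xylulose, and 59 and 155 for the difference between the sugars. The split moved with the scaling: by the median of ratios it was 108 higher and 96 lower on glucose and 111 and 233 on xylulose, and centred on the other chromosomes 118 and 87, and 147 and 169. With the 2 columns of each population as a block, 2 of 4661 genes (0.0429%) were called lower on glucose and 0 of 4661 (0%) on xylulose.

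These 2 were CBP3, an assembly factor for the cytochrome bc1 complex, and ECM5, a subunit of a chromatin complex. CBP3 (YPL215W, chrXVI:147416-148423) was at 13.3, 18.4, 28.0 and 17.4 RPM on glucose in populations 1, 3, 8 and 11, and at 40.8 to 90.7 RPM (median 52.6) in the others, a difference of -1.57 (limma adjusted p = 0.846, and 0.0401 with the block). ECM5 (YMR176W, chrXIII:611740-615975) was at 14.1, 23.5, 32.4 and 18.3 RPM, against 45.3 to 75.4 RPM (median 55.2), a difference of -1.47 (limma adjusted p = 0.846, and 0.0143 with the block). Neither gene overlapped between the sets on glucose, and both did on xylulose, at -0.23 and -0.43. Both lie near the floor of 10 RPM in the selected set, where values are imprecise. In the order of unadjusted p on glucose, DUR12, urea amidolyase, followed among lower genes at -1.24, and CWP1, a cell wall mannoprotein, RNT1, RNase III, and IOC2, of a chromatin remodelling complex, came first among higher genes at 1.63, 1.36 and 1.32. None of them passed (limma adjusted p of 0.989 for DUR12 and 0.995 for the other 3).

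On xylulose the 3 lower genes of smallest unadjusted p were enzymes of amino acid synthesis. ARG4 (YHR018C, chrVIII:140011-141402), whose window is printed above, was at 91.4, 139, 70.6 and 55.6 RPM, below the 190 to 840 RPM (median 332) of the others, a difference of -2.08. TRP5 (YGL026C, chrVII:446412-448535), tryptophan synthase, was at 186, 293, 245 and 314 RPM, against 383 to 645 RPM (median 510), a difference of -0.95. ILV6 (YCL009C, chrIII:104619-105548), the regulatory subunit of acetolactate synthase, was at 344, 463, 309 and 312 RPM, against 491 to 830 RPM (median 632), a difference of -0.86. In each the 4 populations lay below all 8 others, and none passed over all genes (limma adjusted p = 0.203 for each). On glucose they stood at -0.76, -0.35 and -0.12 and the sets overlapped, and ARG4 in the wild type stood at 1.52 on glucose and -0.16 on xylulose by label, and at -0.22 and 0.23 with the numbers exchanged, so its sign there depended on the pairing. GCN4 mRNA, added after its values were seen, differed by 0.02 on glucose and -0.11 on xylulose. The 3 higher genes of smallest unadjusted p on xylulose were MHT1, a homocysteine methyltransferase, YDR029W and YPL088W, at 1.09, 0.79 and 1.25 (limma adjusted p of 0.242 to 0.254).

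Most genes of the amino acid synthesis list elsewhere were below 0 on both sugars, as were most of all genes elsewhere. On xylulose its median deviation from the mean of the evolved populations was -0.33 to -0.18 in the 4, and -0.22 to 0.54 in the others, which overlapped. On glucose it was -0.36 to 0.07 against -0.22 to 0.29, a wider overlap. Of 79 tested genes, 57 were below 0 on xylulose and 56 on glucose, with median differences of -0.39 and -0.17, beside -0.11 and -0.06 over all genes elsewhere. Of all 4661 genes elsewhere, 3076 were below 0 on xylulose and 2672 on glucose. At an unadjusted p under 0.05, limma gave 31 of the list lower on xylulose (39.2%, beside 8.78% of all genes elsewhere) and 0 higher, and 3 lower on glucose (3.80%, beside 2.70%) and 1 higher. With the block, 29 were lower on xylulose (36.7%, beside 3.69%). All 4 populations were below all 8 others for 7 of 79 on xylulose (8.86%), beside 1.21% of all 5129 genes, and for 1 of 79 on glucose (1.27%), beside 0.234%. The 40 genes with TGACTC in their window had a median of -0.49 on xylulose and the 39 without it -0.21, while on glucose these were -0.17 and -0.16. In the wild type strains the list had medians of 0.29 on glucose and 0.02 on xylulose by label, and of 0.06 and 0.36 with the numbers exchanged, where the medians of all genes elsewhere were 0.07 and -0.02 by label and -0.08 and -0.03 exchanged.

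**Figure D5:**
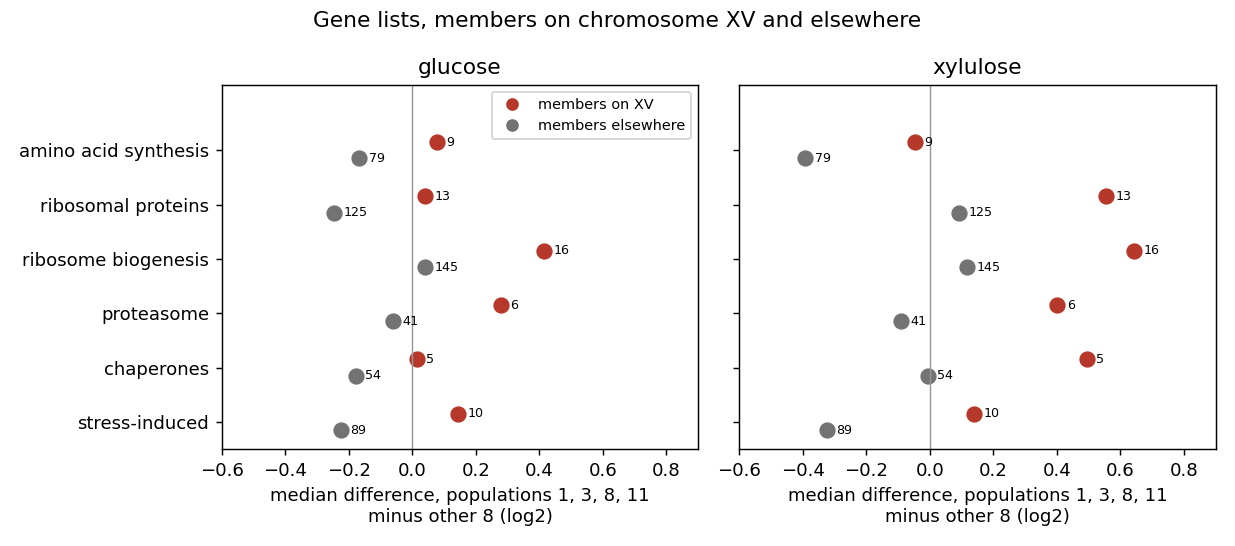
Median log2 difference between populations 1, 3, 8 and 11 and the other 8 for some of the gene lists, on chromosome XV and elsewhere, on each sugar. The lists shown are amino acid synthesis, ribosomal proteins, ribosome biogenesis, proteasome, chaperones and stress-induced genes. The numbers beside the points are genes tested. The amino acid synthesis list elsewhere is at -0.39 on xylulose and ribosomal protein genes on chromosome XV at 0.55.

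The other lists elsewhere had medians nearer 0 on xylulose. Genes raised in the environmental stress response were at medians of -0.22 on glucose and -0.32 on xylulose (89 tested, 71 and 72 below 0), and citric acid and glyoxylate cycle genes at -0.08 and -0.19 (25 tested, 16 and 22 below 0). Of all 4661 genes elsewhere, 2672 were below 0 on glucose and 3076 on xylulose. Ribosomal protein genes elsewhere were at -0.25 and 0.09 (125 tested), mitochondrial ribosomal protein genes at -0.24 and 0.02 (94 tested), and chaperone genes at -0.18 and -0.01 (54 tested). Xylulokinase and the pentose phosphate enzymes elsewhere were at -0.06 and -0.08 (20 tested), glycolysis and ethanol formation at 0.05 and 0.09 (33 tested), respiratory chain and ATP synthase subunits at -0.06 and -0.03 (52 tested), hexose transport at 0.13 and 0.21 (12 tested), and phosphate starvation genes at -0.19 and -0.10 (21 tested). None of their genes passed over all genes tested (limma, adjusted p).

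By chromosome, 0 of the 15 others differed between the sets on glucose (exact 2-sided permutation test over all assignments, Benjamini-Hochberg over 15, smallest unadjusted p = 0.0747), with differences from -0.13 to 0.10. On xylulose 10 of 15 were lower in the selected set, those of chromosomes II, IV, V, VI, VIII, X, XI, XIII, XIV and XVI, by -0.18 to -0.14 (exact permutation, adjusted p of 0.0101 to 0.0364). Because each library is scaled to a fixed total, a higher share of chromosome XV lowers all others, by -0.03 on glucose and -0.05 on xylulose for the shares given above, where the observed medians elsewhere were -0.06 and -0.11. With the median of all genes not on chromosome XV subtracted, an alternative added after seeing the data that removes by construction any shift the chromosomes share, 0 of 15 differed on either sugar (exact permutation, smallest adjusted p of 0.288 and 0.0909). Without population 3 the xylulose count was 4, and without population 8 it was 6.

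The 4 populations differed among themselves on chromosomes XII, VII and IX, which were singled out after their values were seen. Relative to all genes not on chromosome XV, chromosome XII was at 0.23 on glucose and 0.35 on xylulose in population 1 and at 0.37 and 0.12 in population 3. The other 10 populations lay at or below 0, down to -0.11 on glucose and -0.08 on xylulose. Chromosome VII was at 0.20 and 0.32 in population 11 and at -0.01 and 0.19 in population 8, while populations 4 and 12 of the other set reached 0.17 and 0.31, and 0.23 and 0.07. Chromosome IX was at 0.25 on glucose and 0.20 on xylulose in population 3, above the -0.16 to 0.03 and -0.08 to 0.08 of the other 11.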

How the data were processed

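RNA from log phase cells was sequenced with UMI-containing primers. Per the labels and the paper's methods, the authors used Bowtie to map 50 base reads to genome build R64, discarded reads of rRNA, scored PCR duplicates by their UMI, brought every library to a total of 1000000 and averaged the 2 repeats, on a scale not stated. The deposited values are log2 RPM for 6701 genes in 48 columns, with values under 10 RPM blank (84458 cells, 39154 in the evolved columns). Blanks were set to 10 RPM on the log2 scale and left at 0 in levels. Of the IDs, 5953 matched the R64 annotation and the rest carry no position. Chromosome XV genes were those whose ID starts with YO. A step between low values (up to 60 RPM) was accepted where at least 85% of them lay within 0.004 of a multiple, and RPM without counts allow no interval of counting error.

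Groups came from the labels, and 0 columns were unmapped. Genes whose mean over all columns reached 10 RPM were fitted with limma 3.58.1 (lmFit, eBayes with trend) in R 4.3.3, 4 columns against 8, with Benjamini-Hochberg adjustment over all genes tested. Single values per population used exact permutation tests in Python 3.11.15. P-values set the difference between the sets against the spread between populations, or wild types, of different strains. The fits were tested on simulated data. Same-numbered columns are the same population by the labels. Their deviations correlated above 0.1 in 10 of 12 numbers, all but 8 (0.07) and 10 (-0.03), and the block used a correlation of 0.16. Named genes on chromosome XV were the most abundant, the highest and lowest mean differences among genes valued in every evolved column, and members of the lists. Elsewhere they were the 3 of smallest p in each direction, with LEU2 as a strain check. PAP2, ARG8 and GCN4 were added after their values were seen. SEC63, IZH2, RPS15, RPS7A and RPL20B are named because the sets were apart in them. The members and lists were chosen with earlier results of these data known. Alternatives were other pseudocounts and minimums, genes valued throughout, median-of-ratios scaling, centring, the block, exchanged wild type numbers and each population left out. Results per repeat are not analysed here. A gene of the lists is not reported here by name.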

Additional observations from a re-analysis of the deposited data

Results flagged for a closer look

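In 104 sets of 4 or 8 populations examined for a population far from the rest by Dixon's criterion, over chromosomes, lists and genes other than those of chromosome XV, 5 stood out, and chance gives about 1 in 20. On xylulose population 1 was low in ECM5, at 4.32 log2 RPM against 5.20 to 5.32 in the rest of the selected set, and population 8 was low in GCN4, the transcriptional activator of amino acid synthesis, at 10.85 against 11.00 to 11.02. Among the other 8, population 12 was low on glucose in the medians of chromosome VIII (-0.26 against -0.02 to 0.19) and chromosome IX (-0.35 against -0.06 to 0.15). Population 9 was high in the median of chromosome V on xylulose, at 0.18 against -0.002 to 0.08.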

How the results depend on the processing

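Over the alternatives run, the chromosome XV median of the selected set minus the others kept its direction, at 0.20 to 0.31 on glucose and 0.30 to 0.46 on xylulose. The xylulose value of 0.33 was 0.46 once the median of the other chromosomes was subtracted. In the wild type strains the unscaled glucose difference of 0.09 was -0.086 with the numbers exchanged. By label it was 0.10 over genes of at least 50 RPM, and the cause was not tested. In the wild type by label, limma gave 88 higher and 38 lower genes elsewhere on glucose at an unadjusted p under 0.05, and 64 and 141 with the numbers exchanged (161 and 198, and 184 and 183, on xylulose), with 0 passing. The count of other chromosomes that differed on xylulose ranged from 4 to 11 with each population left out, and was 0 with the median of all genes not on chromosome XV subtracted, an alternative added after seeing the data. With the replicate block, by which the columns of a population are paired, 2 genes elsewhere were called on glucose (CBP3 and ECM5), and limma gave 129 higher and 239 lower at an unadjusted p under 0.05 on glucose and 29 and 172 on xylulose. The block changed no other call. In the 21 other alternatives on each sugar no gene elsewhere passed by limma, and the lower genes at an unadjusted p under 0.05 ranged from 85 to 210 on glucose and from 169 to 452 on xylulose, the fewest on xylulose after centring. For the difference between the sugars, genes at an unadjusted p under 0.05 numbered 52 higher and 51 lower over genes of at least 50 RPM and 104 and 103 without population 8, against 59 and 155, and 0 passed. The amino acid synthesis list elsewhere stayed below 0, at -0.42 to -0.26 on xylulose and -0.30 to -0.08 on glucose, its medians recomputed as alternatives added after seeing the data. Ribosomal protein genes on glucose ranged from -0.23 to 0.57 on chromosome XV and from -0.49 to 0.18 elsewhere with a population left out. With each column an average of repeats and depth unknown in most, changes near 10 RPM are the least precise.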
